A study of Homo sapiens with 6 samples.

Results

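The 10 genes described here are the retinoic acid receptors RARA, RARB and RARG, their partners RXRA and RXRB, and 5 genes that take up, bind, make, recycle or destroy retinoids: STRA6, CRABP2, ALDH1A3, DHRS3 and CYP26B1. They were taken by gene name from the 54644 gene rows of the series, and all 10 were found. All 10 also passed the filter on low counts, which kept 14433 genes. The cells were SKBR3, an established HER2-positive breast adenocarcinoma line, infected with a lentivirus carrying the empty pLVX vector (control) or pLVX-CTTN (CTTN) and selected with puromycin. CTTN encodes cortactin, a protein that binds branched actin. Each group had 3 polyA RNA-seq libraries, described as biological replicates of 1 stable line per group, so the line and the CTTN insert cannot be told apart. No retinoid treatment was named for either group.

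Retinoic acid is made inside cells from vitamin A. STRA6 carries retinol across the plasma membrane, retinol is oxidised to retinal by dehydrogenases such as RDH10, and the ALDH1A enzymes oxidise retinal to retinoic acid. DHRS3 works in the opposite direction and reduces retinal back to retinol. CRABP2 carries retinoic acid to the receptors, and the CYP26 enzymes hydroxylate it for removal. RAR and RXR proteins bind DNA as heterodimers at direct repeats of a 6-base half-site, and corepressors held there without ligand are exchanged for coactivators when retinoic acid binds. RARB is the textbook example of a receptor gene that is itself a retinoic acid target, through such a repeat in its promoter, and loss of its RNA is well known in breast cancer lines. RARA lies near ERBB2 on chromosome 17 and can be amplified together with it in HER2-positive cells.

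The promoter of the RARB start site with most of the reads is shown because RARB had the greatest change of the 10 genes. The sequences are from RefSeq, build GRCh38.p14, and each is the 250 bases before an annotated start, read 5′ to 3′ on the strand of the gene. Capitals mark the direct repeat of 2 half-sites with 5 bases between them (DR5). The first RARB window is chr3:25428013-25428262, on the plus strand. The second RARB window, chr3:25458060-25458309 on the plus strand, belongs to a start further downstream that control libraries also used. Both lie inside the gene as RefSeq annotates it (chr3:24829321-25597932). The STRA6 window, chr15:74202788-74203037 on the minus strand, belongs to the start whose estimated reads differed most between the groups.
RARB, DR5 start: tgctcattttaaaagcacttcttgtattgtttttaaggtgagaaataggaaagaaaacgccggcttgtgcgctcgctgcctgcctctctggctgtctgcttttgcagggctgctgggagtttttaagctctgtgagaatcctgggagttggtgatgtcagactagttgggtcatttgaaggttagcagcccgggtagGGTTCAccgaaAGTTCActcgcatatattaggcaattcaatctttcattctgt
RARB, downstream start: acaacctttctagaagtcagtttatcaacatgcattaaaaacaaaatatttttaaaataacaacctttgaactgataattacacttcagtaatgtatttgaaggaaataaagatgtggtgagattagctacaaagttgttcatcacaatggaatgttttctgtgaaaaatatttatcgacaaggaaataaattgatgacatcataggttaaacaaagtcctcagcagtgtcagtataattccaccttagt
STRA6: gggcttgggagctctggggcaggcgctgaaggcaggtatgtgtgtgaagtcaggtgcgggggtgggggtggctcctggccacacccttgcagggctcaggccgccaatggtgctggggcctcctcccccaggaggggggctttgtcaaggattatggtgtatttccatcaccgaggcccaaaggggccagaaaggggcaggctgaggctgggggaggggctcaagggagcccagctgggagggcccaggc
A search for the half-sites AGGTCA (the consensus), GGGTCA (its first base changed), AGTTCA (an inner base changed) and GGTTCA (both changed) on both strands, in windows of 300 bases that run from 250 bases before a start to 50 after it, found a direct repeat in 1 of the 23 windows of the 10 genes. It was the RARB repeat, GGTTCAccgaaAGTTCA, whose first base lies 53 bases before the start. Over all 35116 RefSeq windows, 0.0883% held a DR5 by the same search. Repeats with 1 base between the half-sites (DR1) were in 0.131% of windows and those with 2 (DR2) in 0.0399%, while a single half-site was in 38.6%. A match of letters is a description of the sequence and does not show that a receptor was bound there.

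The libraries held between 34887079 and 41279658 fragments assigned to genes. The epithelial and HER2 markers were abundant, with ERBB2 at 1675 FPKM in control and 1739 FPKM in CTTN, and CDH1 (E-cadherin) was near 0 in both, at 0.13 and 0.10 FPKM. Of the 6 such markers tested 0 passed. Of 9 markers of other cell types, 4 were measured well enough to be tested and 0 passed. The nearest was ACTA2, smooth muscle actin, whose CTTN libraries were all above the controls but at most at 0.821 CPM (log2 fold change 1.37, adjusted p = 0.059, edgeR). The libraries were not alike within the CTTN group. The first principal component, with 78.7% of the variance, put CTTN library 3 at -45.4 and CTTN library 2 at 7.71, against 14.7 to 20.9 for the controls. Deviations from the control mean fell with gene length in CTTN libraries 1 and 3 (Spearman's rho over genes -0.473 and -0.569) and hardly in CTTN library 2 (-0.0478). In control libraries 1 to 3 rho was -0.308, 0.14 and 0.209, smaller in size than in CTTN libraries 1 and 3 and larger than in CTTN library 2. A fit with the length trend removed from each library called 5.62% of genes as lower and 5.63% as higher, among them the epithelial keratin KRT18 (log2 fold change -0.375, adjusted p = 0.0227). Its values are given below where they change a call. CTTN itself stood at 793, 1011 and 520 CPM (fragment counts scaled to a common library size with TMM) in CTTN libraries 1 to 3 and at 299, 307 and 306 CPM in control libraries 1 to 3, a log2 fold change of 1.35 (adjusted p = 0.0249, edgeR quasi-likelihood test).

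Of the 10 genes, 3 were lower in CTTN cells at an adjusted p below 0.05 (RARB, STRA6 and ALDH1A3), 0 were higher and 7 did not pass. A gene called below is one that passed this threshold. Of all 14433 genes, 1.91% passed as lower and 2.29% as higher. The 10 genes were chosen with earlier results of these data known, so their counts are not independent of that choice. RARB fell 3.50-fold, STRA6 1.55-fold and ALDH1A3 1.43-fold. Groups did not overlap in 7 of the 10 genes: in ALDH1A3, DHRS3, RARB, RARG, RXRB and STRA6 every CTTN library was below every control library, and in CYP26B1 every CTTN library was above. The background of such separations was 19.4% of genes for below and 19.3% for above. With a change of at least 1.5-fold and an unadjusted p below 0.05, 2 of the 10 were lower (RARB and STRA6) and 0 higher, against 4.72% and 6.67% of all genes. The median log2 fold change of the 10 genes was -0.195, beside 0.0108 over all genes tested.

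**Figure D1:**
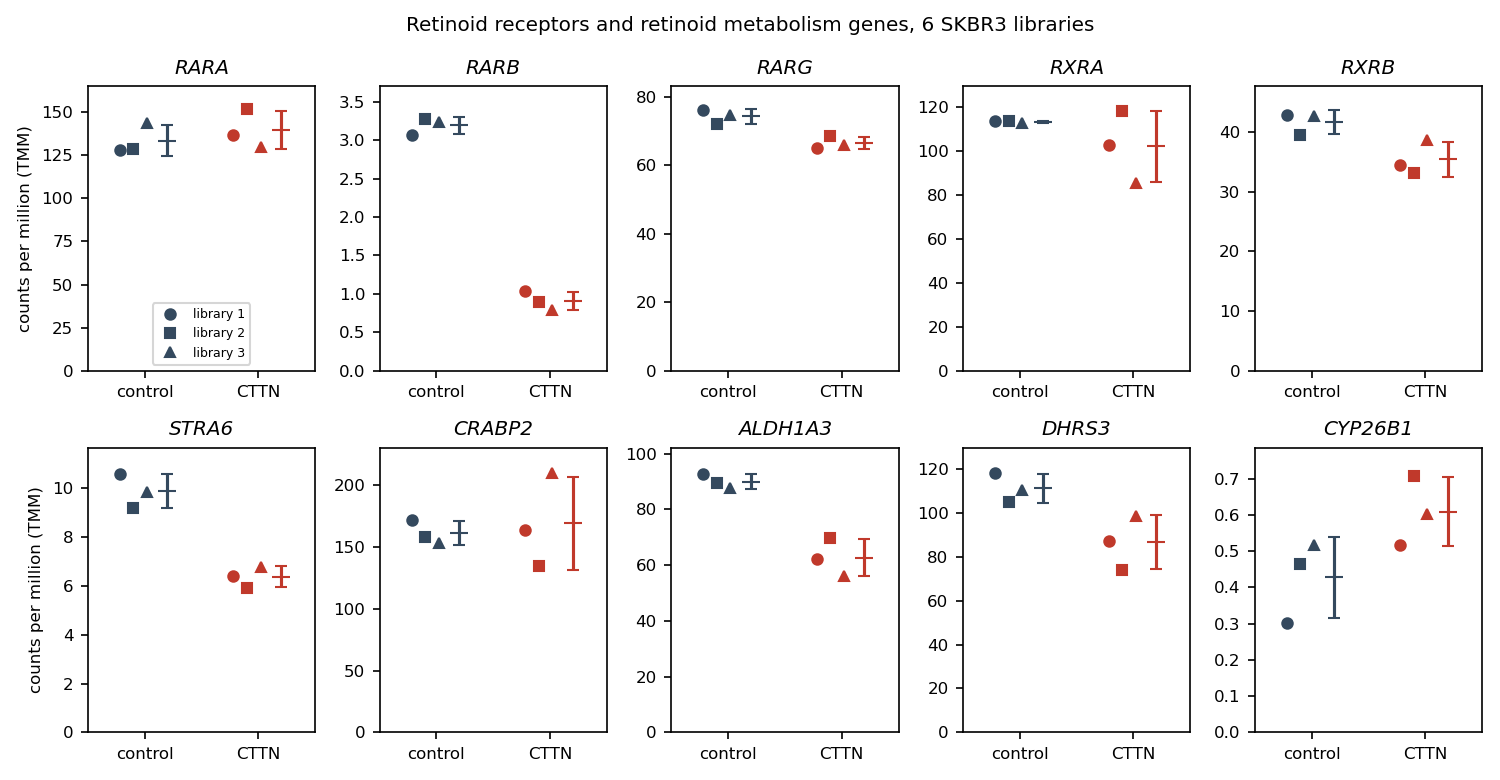
CPM (linear axis from 0, scaled by TMM) of the 10 genes in 3 control and 3 CTTN libraries; symbols mark library numbers and bars the mean ± SD. RARB, STRA6 and ALDH1A3 lie lower in all 3 CTTN libraries, and CTTN library 3 is the highest for CRABP2 and the lowest for RXRA.

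Levels per transcript length differed by a wide margin among the genes. In control cells the order by mean FPKM was CRABP2 (164.2 ± 9.0, SD, n = 3), DHRS3 (71.9 ± 3.5), RARA (47.3 ± 3.9), ALDH1A3 (29.8 ± 0.75), RXRA (26.8 ± 1.1), RARG (26.7 ± 1.2), RXRB (16.9 ± 0.89), STRA6 (5.07 ± 0.46), RARB (1.18 ± 0.078) and CYP26B1 (0.141 ± 0.023). Among neighbours in that order, RXRA and RARG were the only pair whose library ranges overlapped in control cells. In CTTN cells the ranges overlapped for DHRS3 and RARA, for ALDH1A3 and RXRA, and for RXRA and RARG. The binding protein CRABP2 headed the order in both groups, while the breakdown enzyme CYP26B1 stood last. FPKM are not shares of a library: their sum over genes ran from 603634 in control library 3 to 852256 in CTTN library 3. Each library pools many cells, so fewer cells expressing a gene and less RNA per cell cannot be told apart.

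**Figure D2:**
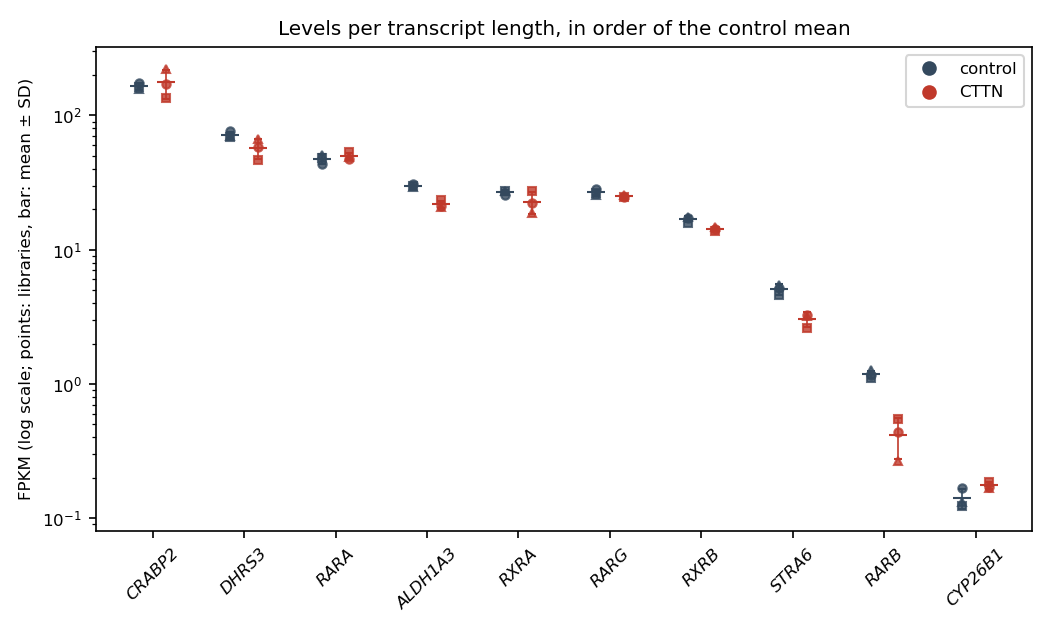
FPKM (log axis) of the 10 genes in order of the control mean, with the 3 libraries of each group as points and the mean ± SD as bars. The genes run from 164.2 FPKM for CRABP2 to 0.141 FPKM for CYP26B1 in control cells, and the RARB points of the groups stand apart.

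Among the receptors, RARB alone passed the test. RARB stood at 1.04, 0.898 and 0.794 CPM in CTTN libraries 1 to 3 and at 3.07, 3.28 and 3.24 CPM in control libraries 1 to 3. These came from 26 to 37 fragments per CTTN library and from 109 to 138 per control library. All 3 CTTN libraries were below all 3 controls, and the gap between the groups was wider than the spread within either. The log2 fold change was -1.81 (SE 0.16, 95% interval -2.19 to -1.43, adjusted p = 0.00405). With the length trend removed it was -1.84, so the difference was as large. The call was lost when control library 2 was left out (adjusted p = 0.0556, log2 fold change -1.79) and in limma on FPKM, at -0.622 with a pseudocount of 1 (adjusted p = 0.0705, or 0.119 without the filter) and at -1.34 with a pseudocount of 0.1 (adjusted p = 0.0879). The RARB row of the tables (chr3:24687919-25664939, GRCh38) also holds 1 isoform of the neighbouring noncoding gene AC092422.1, but isoforms named RARB made up 88.2% to 100% of its fragments, and a fit on those alone also called RARB.

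RARA, the receptor gene on 17q21, did not differ between the groups beyond the spread of the libraries. It stood at 136.4, 151.4 and 129.9 CPM in CTTN cells and at 128.0, 128.4 and 143.5 CPM in control cells, and the groups overlapped. Its log2 fold change was 0.06 (SE 0.093, 95% interval -0.16 to 0.28, adjusted p = 0.646), and leaving out CTTN library 2 turned it to -0.0084. RARG stood at 65.0, 68.6 and 65.9 CPM in CTTN cells and at 76.2, 71.9 and 74.5 CPM in control cells. Every CTTN value was below every control value, but the log2 fold change was only -0.16 (95% interval -0.33 to 0.02, adjusted p = 0.191). As shares of the summed FPKM of the 3 RAR genes, RARA made up 59.6% to 65.3% in control libraries and 65.4% to 67.7% in CTTN libraries. RARG made up 33.1% to 38.8% and 31.6% to 34.2%, and RARB 1.47% to 1.62% and 0.36% to 0.703%. Thus RARB was a small part of the RAR RNA in both groups, and its share in every CTTN library was below that in every control.

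The RXR genes encode the obligate partners of the RARs and of several other nuclear receptors. RXRA stood at 102.7, 117.9 and 85.4 CPM in CTTN cells and at 113.7, 113.4 and 112.6 CPM in control cells. CTTN library 2 was above the controls and library 3 well below them, and the log2 fold change of -0.15 did not pass (95% interval -0.44 to 0.14, adjusted p = 0.395). Without CTTN library 2 it was -0.273 and passed (adjusted p = 0.0403), in a fit that called 24.2% of genes as lower, and without CTTN library 3 it was -0.0367. RXRB stood at 34.5, 33.1 and 38.7 CPM in CTTN cells and at 42.9, 39.4 and 42.7 CPM in control cells. Its groups did not overlap, with a log2 fold change of -0.23 (SE 0.094, adjusted p = 0.153). RXRB passed with the length trend removed, at -0.30 (adjusted p = 0.0312), and RXRA was at -0.0117. RXRG, the third RXR gene, was too low to be tested.

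STRA6, the retinol channel, was lower in CTTN cells. It stood at 6.41, 5.93 and 6.79 CPM in CTTN cells and at 10.6, 9.20 and 9.87 CPM in control cells. The highest CTTN library was below the lowest control, and the log2 fold change was -0.63 (SE 0.107, 95% interval -0.88 to -0.38, adjusted p = 0.0266). STRA6 kept its direction in all 16 other settings tried and its call in 8 of them, the value running from -0.723 to -0.588.

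CRABP2, the most abundant of the 10 genes, varied more among CTTN libraries than between the groups. It stood at 163.4, 134.2 and 209.4 CPM in CTTN cells and at 172.0, 158.3 and 153.2 CPM in control cells. CTTN library 3 was the highest and CTTN library 2 the lowest of all 6. The log2 fold change of 0.07 (SE 0.16, 95% interval -0.31 to 0.44, adjusted p = 0.775) did not pass. CRABP2 has the shortest transcript of the set, 1033 bases, and the shortest of 4 length classes had a median deviation of 0.42 (log2) in CTTN library 3. With the length trend removed, its value turned to -0.28 and passed (adjusted p = 0.0216), and without CTTN library 3 it was -0.115, so no direction is given for CRABP2.

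ALDH1A3, which oxidises retinal to retinoic acid, was lower in CTTN cells. It stood at 62.4, 69.7 and 56.2 CPM in CTTN cells and at 92.8, 89.4 and 87.8 CPM in control cells. The groups did not overlap, and the log2 fold change was -0.52 (SE 0.098, 95% interval -0.75 to -0.29, adjusted p = 0.0363). The row joins ALDH1A3 with noncoding neighbours, and isoforms named ALDH1A3 held 91.4% to 93.2% of its fragments. A fit on those isoforms called it too. Over the other settings the value ran from -0.608 to -0.403, and 8 of 16 lost the call. The related enzyme ALDH1A1 was far lower per transcript length, at 0.089 FPKM in control and 0.094 FPKM in CTTN cells, too low to be tested.

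DHRS3, which returns retinal to retinol, was lower in each CTTN library than in any control but did not pass the test. It stood at 87.3, 73.9 and 98.6 CPM in CTTN cells and at 117.9, 105.0 and 110.4 CPM in control cells. The log2 fold change was -0.36 (SE 0.119, 95% interval -0.64 to -0.08, adjusted p = 0.114). DHRS3 is short, at 1722 bases, and with the length trend removed it stood at -0.63 and passed (adjusted p = 0.00177). Leaving out CTTN library 3 gave -0.463 and leaving out CTTN library 2 gave -0.263. Both of these passed as well, in fits that called 3.99% and 24.2% of genes as lower. DHRS3 was thus lower under every setting, and whether it passed depended on how the unequal CTTN libraries were treated.

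CYP26B1, an enzyme that breaks down retinoic acid, was close to the limit of detection. It stood at 0.518, 0.708 and 0.602 CPM in CTTN cells and at 0.302, 0.464 and 0.517 CPM in control cells, from 11 to 27 fragments per library. The lowest CTTN library and the highest control library were all but equal. The log2 fold change of 0.51 (SE 0.29, 95% interval -0.17 to 1.19, adjusted p = 0.251) did not pass, and the interval leaves the direction undecided. Over 14 other settings the value ran from 0.0443 to 0.663.

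**Figure D3:**
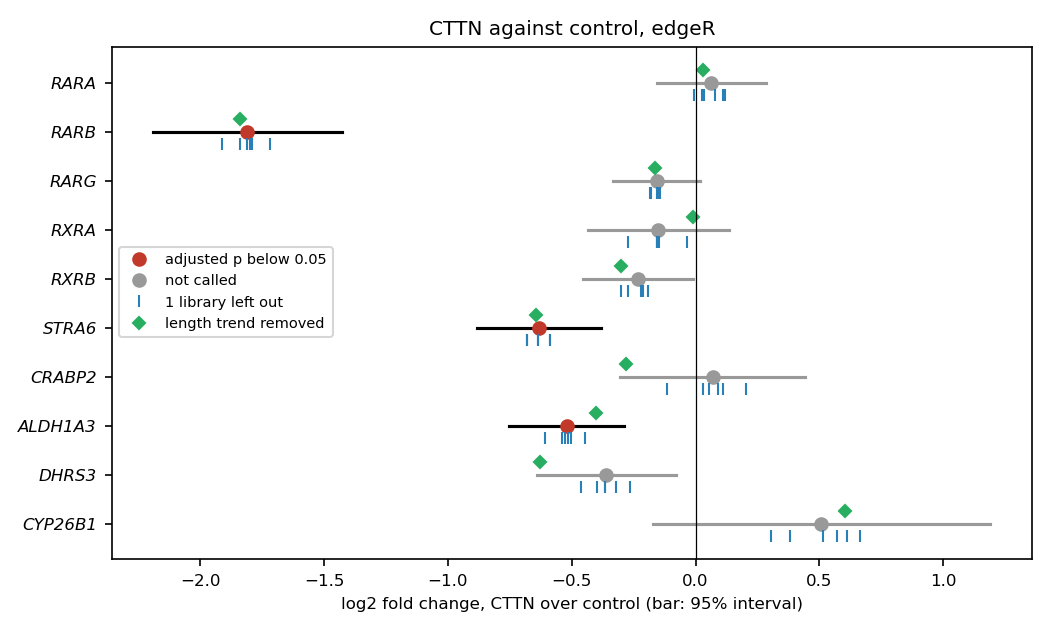
Log2 fold change (CTTN over control) of the 10 genes with its 95% interval, with ticks for fits that leave out 1 library and diamonds for the fit with the length trend removed. RARB at -1.81, STRA6 at -0.63 and ALDH1A3 at -0.52 pass the test, and CRABP2 changes sign when the length trend is removed.

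The estimates by start site show where in each locus the reads were placed. They are scaled estimated fragments, which share reads among overlapping isoforms and so vary more than gene totals. In edgeR, 0% of the 35916 start-site rows and 0% of the 58275 isoform rows passed, although 3730 and 3638 rows had an unadjusted p below 0.05. DESeq2 called 1071 start-site rows and 1180 isoform rows on the same values, 3% and 2.04% of those it tested.

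At RARB, most reads were placed at the start whose nearest annotated transcripts begin at the DR5 promoter printed above. That start, TSS85971, held 30.8, 24.9 and 19.1 fragments in CTTN libraries and 67.2, 96.3 and 83.4 in controls. Its groups did not overlap, with a log2 fold change of -1.71 (adjusted p = 0.364 in edgeR and 0.000844 in DESeq2). The downstream start TSS85973, whose printed window held no direct repeat, had 0, 2.71 and 9.70 fragments in CTTN libraries and 37.4, 24.2 and 32.3 in controls (adjusted p = 0.478 in edgeR and 0.208 in DESeq2). Both of these starts were lower in every CTTN library than in any control, and whether the repeat had a part in this was not tested. The other 3 RARB starts held under 8 fragments in every library and were not tested. Among them TSS85972 held 7.53, 1.72 and 0 fragments in CTTN libraries and 0, 0 and 1.12 in controls.

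At STRA6, the start of the printed minus-strand window, TSS43233, held 11.9, 4.19 and 0.0136 fragments in CTTN libraries and 80.7, 170 and 150 in controls. The log2 fold change was -4.62 in edgeR (adjusted p = 0.448) and -4.65 in DESeq2 (adjusted p = 0.000853). Most of the control reads there were assigned to 1 isoform, matched to the annotated transcript ENST00000395105, at 76.4, 160 and 129.1 fragments in controls and under 0.02 in each CTTN library. DESeq2 called this isoform (adjusted p = 6.08e-09). The next start, TSS43234, spread from 0.000455 to 57.4 fragments in CTTN and from 32.9 to 147.9 in control libraries, so the groups overlapped. Not every STRA6 start was lower. TSS43232 held 28.5, 29.4 and 30.9 fragments in CTTN libraries, all above the 14.7, 20.6 and 10.6 of the controls (log2 fold change 0.92, adjusted p = 0.478 in edgeR and 0.342 in DESeq2). TSS43238 and TSS43239 had positive log2 fold changes in DESeq2, 1.88 and 1.61, with overlapping groups (adjusted p = 0.604 and 0.829), and TSS43236 was at -0.0546. The STRA6 locus holds many overlapping isoforms, and how the reads were shared among them was not tested.

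**Figure D4:**
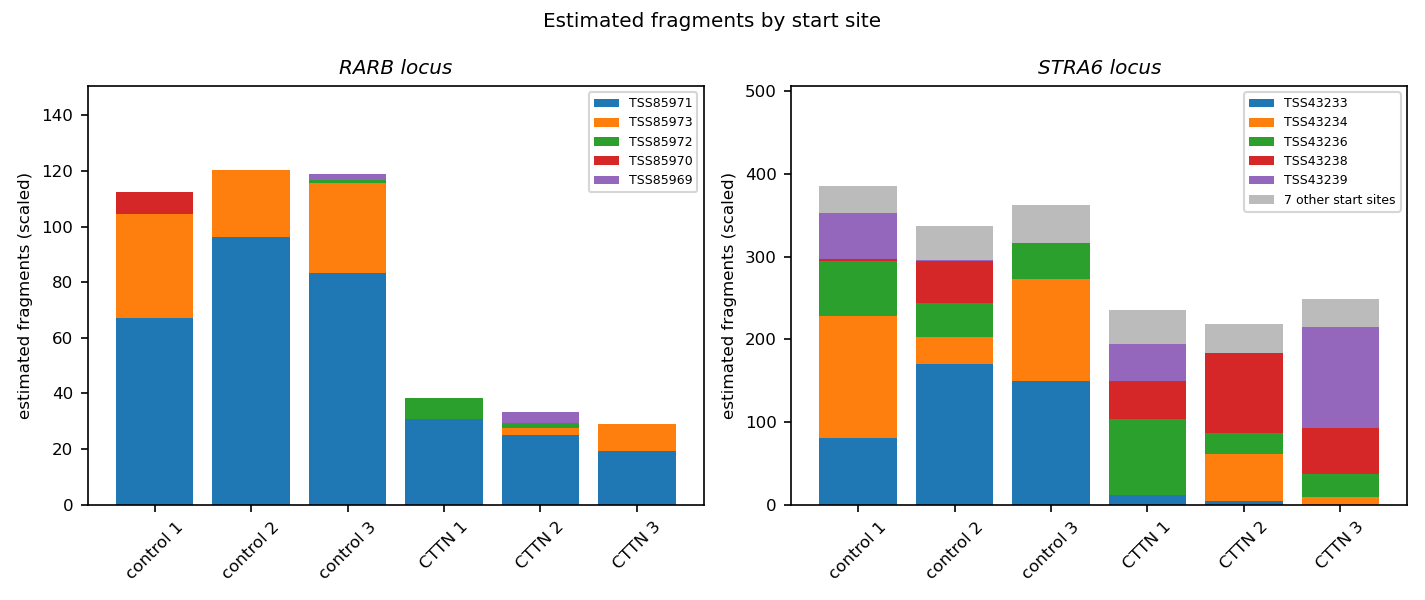
Scaled estimated fragments (linear axis from 0) stacked by start site for RARB and STRA6 in each of the 6 libraries. The TSS85971 segment of RARB and the TSS43233 segment of STRA6 are smaller in all 3 CTTN libraries than in any control.

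For ALDH1A3 the reads fell on a pair of starts. TSS41549 held 1434, 1672 and 726 fragments in CTTN libraries and 2093, 2346 and 2427 in controls, without overlap, and TSS41550 held 686, 711 and 1149 against 1043, 683 and 574, with overlap. The first had a log2 fold change of -0.84 and the second of 0.16, and neither passed in edgeR (adjusted p = 0.478 and 0.832). CTTN library 3 was the lowest at the first start and the highest at the second. A minor start of RARA, TSS52290, held 63.0, 19.9 and 956 fragments in CTTN libraries and 17.4, 21.6 and 14.6 in controls. CTTN library 3 held most of these and CTTN library 2 lay within the controls (adjusted p = 0.478 in edgeR and 0.0319 in DESeq2). A minor start of RARG, TSS29695, held 137, 56.5 and 687 fragments in CTTN libraries, all above the controls, whose highest value was 18.95. It did not pass in edgeR (adjusted p = 0.478) or DESeq2 (0.0785), and the part of CTTN library 3 in both results was not tested.

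Other genes of the pathway were grouped in lists by role. These lists were also chosen with earlier results of these data known, so their counts are not independent of the choice. Of 18 gene names for retinoid uptake, transport and storage, aliases among them, 16 had a row. Of these, 7 were tested and 0 passed, with a median log2 fold change of 0.166. RBP5, a cellular retinol-binding protein, was the highest of them, at 2.45, 2.12 and 3.72 CPM in CTTN and 1.21, 1.39 and 1.58 CPM in control cells (log2 fold change 0.99, adjusted p = 0.071). Of 23 genes for the oxidation or reduction of retinol and retinal, 14 were tested and 0 passed, with a median of 0.116. RDH10, the dehydrogenase that makes retinal, stood at 95.6, 87.6 and 98.1 CPM in CTTN and 114.8, 119.0 and 119.2 CPM in control cells (log2 fold change -0.33, adjusted p = 0.0655). SDR16C5, another retinol dehydrogenase, stood at 1.04, 0.653 and 1.34 CPM against 2.11, 1.97 and 1.93 CPM (-0.98, adjusted p = 0.0762). Both passed as lower with the length trend removed (adjusted p = 0.0397 and 0.0341), where 5.62% of all genes did. In this list 3 of the 14 had every CTTN library below every control and 2 had every one above, beside 19.4% and 19.3% of all genes. Of 7 genes for retinoic acid breakdown, 1 was tested, CYP2S1, at -0.72, and it did not pass.

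Of 14 nuclear receptors that pair with RXR, 10 were tested and 1 was higher, beside 2.29% of all genes. Every CTTN library was above every control in 4 of the 10 and below in 0, beside 19.3% and 19.4% of all genes. The gene that passed was PPARG, the receptor that drives fat cell differentiation, at 12.4, 11.4 and 12.1 CPM in CTTN cells and 7.35, 7.29 and 7.53 CPM in control cells. Its log2 fold change was 0.69 (SE 0.089, adjusted p = 0.0115), and the median of the list was 0.0656. With the length trend removed 2 of the 10 were higher, PPARG at 0.495 (adjusted p = 0.022) and NR4A1, an orphan receptor, at 0.344 (adjusted p = 0.0311), beside 5.63% of all genes in that fit. The 14 receptor corepressors and coactivators were all tested and 0 passed, with a median of -0.43. Their transcripts are long, at a median of 7811 bases, and by library their median against the control mean was -0.526 in CTTN library 1, 0.05 in CTTN library 2 and -0.884 in CTTN library 3. With the length trend removed the median of the list was -0.185 and 1 of 14 passed as lower, KAT2B, an acetyltransferase, beside 5.62% of all genes in that fit.

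Genes known to respond to retinoic acid did not move one way. The list held 34 names, aliases of the same gene among them, and 32 names had a row. Of the 20 genes tested, 2 were lower and 1 was higher, beside 1.91% and 2.29% of all genes, with a median of -0.181. GPRC5A, an orphan receptor whose older names refer to its induction by retinoic acid, stood at 32.0, 35.1 and 29.3 CPM in CTTN cells and 80.3, 86.0 and 83.5 CPM in control cells. It fell by 1.38 on the log2 scale (SE 0.095, adjusted p = 0.00306). SOX9, a transcription factor of epithelial progenitors, stood at 6.35, 7.10 and 6.41 CPM against 13.3, 13.1 and 13.0 CPM (log2 fold change -0.99, adjusted p = 0.00484). ANGPTL4, an inhibitor of lipoprotein lipase that PPARs also control, was higher, at 6.90, 3.78 and 7.28 CPM against 1.21, 1.58 and 1.20 CPM (2.17, adjusted p = 0.0124). Of those that did not pass, CCL2, a chemokine, was at 0.81 (adjusted p = 0.0502) and BHLHE41, a transcriptional repressor, at -1.24 (adjusted p = 0.065). Every CTTN library was below every control in 8 of the 20 and above in 3, beside 19.4% and 19.3% of all genes. With a change of at least 1.5-fold and an unadjusted p below 0.05, 4 were lower and 2 higher, beside 4.72% and 6.67%. Once the length trend was removed, 4 of the 20 were lower and 1 higher, beside 5.62% and 5.63% of all genes. The 19 listed neighbours of RARA on chromosome 17 gave 16 tested genes, 0 of which passed, with log2 fold changes from -0.344 to 0.324.

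**Figure D5:**
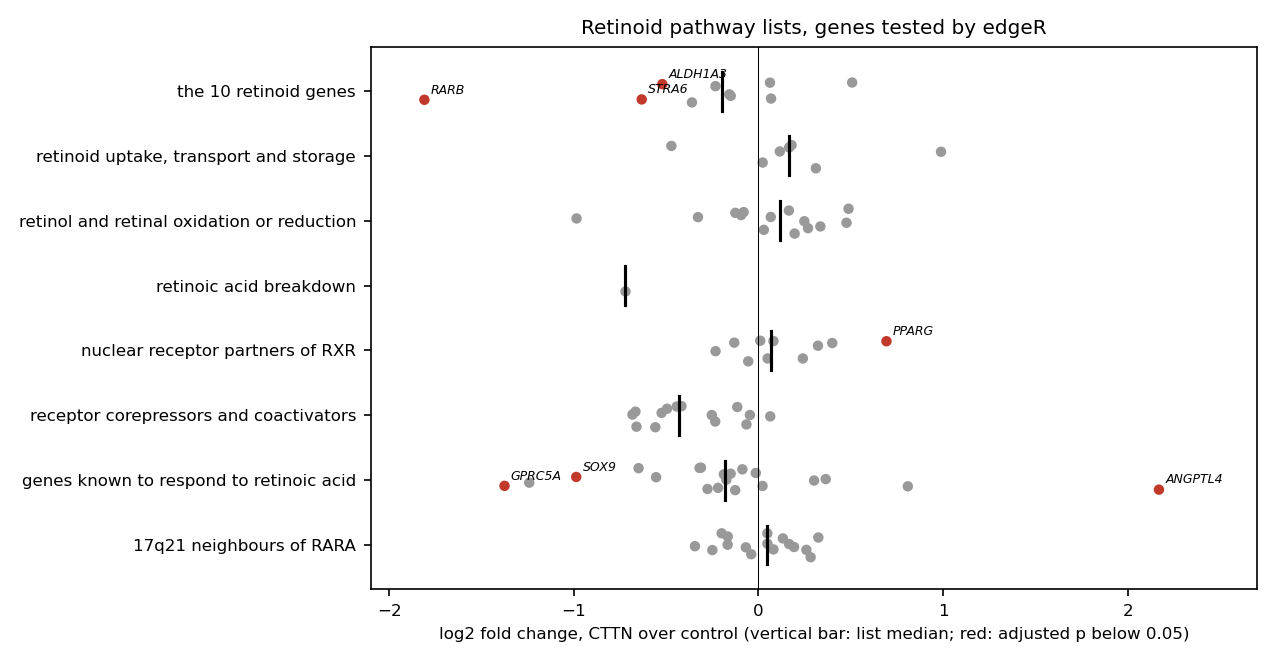
Log2 fold change (CTTN over control, edgeR) of each tested gene in the 10-gene set and in the pathway lists, with red points for an adjusted p below 0.05 and a vertical bar for each list's median. Named points are the genes that passed: RARB, STRA6 and ALDH1A3 in the set, PPARG among the RXR partners, and GPRC5A, SOX9 and ANGPTL4 among the retinoic acid-responsive genes.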

How the data were processed

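RNA from 3 control and 3 CTTN SKBR3 libraries was prepared with a stranded polyA kit. Per the labels, the submitters' notes name bcl2fastq 2.20.0, Trimmomatic, STAR and Cufflinks, with GRCh38. The study's methods name another build, and the locus coordinates match GRCh38. Whether counting used strand was not given in the sources used here. The authors deposited Cuffnorm tables of FPKM and of scaled counts for genes, isoforms and start sites. The deposited gene counts, a signal scaled per library, returned to whole fragments within 0.1 for at least 98.7% of values when multiplied by the library's scale, and edgeR was run on them as deposited, rounded to whole numbers, where raw counts had been planned for; the whole fragments were an alternative. The deposited isoform and start-site values are estimated counts and were also rounded. Columns named for control libraries carry numbers shifted from those in the labels, so they were used as group columns, numbered by the deposited sample table.

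Counts were tested with edgeR 4.0.16 (R 4.3.3; TMM, filterByExpr, quasi-likelihood test, Benjamini-Hochberg adjustment over all genes). All p-values are two-sided, and set the difference between the groups against the spread among these libraries of 1 line per group. DESeq2 1.42.0 and limma 3.58.1, on log2(FPKM + 1) or log2(FPKM + 0.1) for genes at 1 FPKM or more in 3 libraries, were alternatives, as were RLE size factors, a fit without the filter, a replicate block, leaving out each library, named isoforms only, and a fit with a smooth trend on gene length removed from each library. The last was added after seeing the data, as were the named isoforms and DESeq2 on isoforms and start sites. The tests were checked on simulated counts with 200 changed genes. The rule for named genes took all 10 genes and, from each list, at most 4 genes per direction that passed. RBP5, RDH10, SDR16C5, CYP2S1, ACTA2, BHLHE41, NR4A1, KRT18, KAT2B, CCL2, ALDH1A1 and the start sites were named after their values were seen. The members and lists were chosen with earlier results of these data known.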

Additional observations from a re-analysis of the deposited data

How the results depend on the processing

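The 3 calls among the 10 genes (RARB, ALDH1A3 and STRA6) held in DESeq2, with RLE size factors, with fragments multiplied back, without the filter and with named isoforms only, while the count of genes called over the whole table moved from 606 to 2069 in DESeq2. In limma on log2(FPKM + 1) and log2(FPKM + 0.1), 0 of the 10 were called, with 148 and 151 genes in all, and without the filter 0 of the 10 and 13 genes. With the length trend removed 6 of the 10 were called, all lower, beside 5.62% of all genes called as lower. That fit called 1623 genes in both directions, and CRABP2 turned to -0.283. Leaving out 1 library gave 0 to 5 calls among the 10 and 15 to 6953 genes. Without CTTN library 2, RARA turned to -0.0084 (highest 0.117, without control library 3) and RXRA joined the calls, and without CTTN library 3 CRABP2 turned to -0.115 (highest 0.204, without CTTN library 2). ALDH1A3 and STRA6 lost their call without CTTN library 1 or any 1 control, and without control library 2 RARB did too (adjusted p = 0.0556). DESeq2 called 1180 isoform and 1071 start-site rows against 0 in edgeR. With controls numbered by the deposited sample table, same-numbered libraries deviated with r = 0.0417, 0.16 and -0.283, and over all CTTN and control pairs r ran from -0.423 to 0.402. Since that numbering differs from the labels, whether numbers pair the samples was not settled. With the replicate block 109 genes and 1 of the 10 (RARB) were called. RARB and CYP26B1 rest on few fragments, which limits their precision. The causes were not tested.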
